A study of Drosophila melanogaster with 6 samples.

Results

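Aminoacyl-tRNA synthetases are the enzymes that load each amino acid onto its matching tRNA, and every protein a cell makes depends on them. The members were the rows of the deposited gene table whose description holds the words tRNA synthetase, or whose symbol starts with Aats-. This rule took 22 of 14233 genes and used no expression value. All 22 met the description condition and 21 also the symbol condition. The exception was Slimp, a paralogue of the seryl enzyme that has lost the charging activity. All 22 had enough counts to be tested.

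Expression was measured in cells from the wing imaginal disc of third-instar Drosophila larvae, the epithelial sac from which the wing and part of the thorax develop. Both genotypes carried Ap>Gal4, which drives transgenes in dorsal disc cells, with TubGal80ts, a temperature-sensitive brake on Gal4, and the membrane marker myrT. One group of 3 libraries expressed RasV12, a mutant Ras GTPase that stays switched on, and the control group of 3 carried GFP-i in its place. Larvae spent 6 days at 18 °C and then 3 days at 29 °C, and about 150000 dorsal, transgene-expressing cells were sorted for each library of 3' mRNA tags. The labels do not say whether replicates came from separate pools of larvae, and the p-values therefore reflect only how these libraries spread.

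The family falls into 2 structural classes that share no common fold in their catalytic domain, class I and class II. Cytosolic enzymes charge tRNAs for translation of nuclear genes, while mitochondrial enzymes, also encoded in the nucleus, serve the translation of the few proteins encoded by mitochondrial DNA. In growing tissue the cytosolic set is generally regarded as part of the protein synthesis machinery. In mammals several cytosolic enzymes, those for glutamate and proline, isoleucine, leucine, methionine, glutamine, lysine, arginine and aspartate, are held together in one large multi-synthetase complex by scaffold proteins.

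The older names in the table hide which compartment a gene serves. By their current symbols 14 members are counted as cytosolic and 8 as mitochondrial (ending in -m, or Slimp), and the descriptions of 5 of the mitochondrial genes do not say so. Cytosolic here means only a symbol without -m. No -m gene for glycine, lysine or threonine is among the genes examined, and whether such members also serve mitochondria was not tested. The rows listed as Aats-met, Aats-pro, Aats-leu, Aats-ser and Aats-phe are MetRS-m, ProRS-m, LeuRS-m, SerRS-m and PheRS-m. Their cytosolic partners MetRS and SerRS and both subunits of the cytosolic phenylalanine enzyme, alpha-PheRS and beta-PheRS, have no such description and were not taken by the rule. These 4 genes and 8 further mitochondrial ones are described after the members.

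Library totals were 11070295 to 15581752 counts. Levels are given as CPM, a gene's count scaled to a common library size, after TMM scaling, which corrects for differences in library composition. On this scale 3 counts in a library corresponded to 0.177 to 0.281 CPM. The scale counts 3' tags, so levels are compared between libraries and not between genes. The dorsal selector gene ap was present at 207 to 267 CPM in RasV12 and 227 to 308 CPM in GFP-i. Of the other dorsal genes, Dr rose (log2 fold change 0.87, edgeR adjusted p = 0.002) and mew, which encodes an integrin subunit, fell (-0.68, edgeR adjusted p = 0.014). The ventral marker if, which encodes another integrin subunit, rose by 0.78 (edgeR adjusted p = 0.022), at 40.02 to 48.9 CPM in RasV12 and 20.5 to 33.0 CPM in GFP-i. Of the epithelial markers vg fell (-1.45, edgeR adjusted p = 0.00099), Egfr and shg rose (0.50 and 0.66, edgeR adjusted p = 0.035 and 0.031) and sd did not pass (0.04). Of 4 tracheal markers 1 passed, btl, which rose (1.19, edgeR adjusted p = 0.005). The others did not pass, with trh and vvl lower (-0.58 and -0.46) and sano higher (0.38). Of 5 neuronal or glial markers 1 passed, brp, which fell (-0.91, edgeR adjusted p = 0.021). The others did not pass, with elav higher (0.48) and repo, nSyb and Syt1 lower (-0.40, -0.67 and -0.29). Of 4 fat body markers 1 was tested, Lsp1beta, which did not pass (0.60, edgeR adjusted p = 0.166). Lsp1beta stood at 10.03 to 15.83 CPM in RasV12 and 5.64 to 9.52 CPM in GFP-i, with no overlap. Lower levels in RasV12 passed the test for 2 of 4 tested markers of haemocytes and for 3 of 6 markers of muscle precursors. Of all 9134 tested genes 519 fell. The 2 haemocyte markers were Col4a1 and vkg (-1.72 and -2.18, edgeR adjusted p = 0.006 and 0.002). The others tested, srp and Pxn, were lower but did not pass (-0.49 and -0.75). Hml was not tested, and its group means were close, at 0.528 (RasV12) against 0.535 (GFP-i) on the CPM scale. Whether fewer haemocytes were present was not tested. The summed level of the haemocyte markers was 10.5 to 14.1 CPM in RasV12 and 16.7 to 29.5 CPM in GFP-i, with eater at 0 in 5 of 6 libraries, and that of the muscle precursor markers was 59.98 to 76.4 and 76.8 to 117 CPM. Mef2 made up 46.8 to 53.8 CPM of the muscle sum in RasV12 and 35.1 to 42.6 CPM in GFP-i and did not pass (0.33), while Him fell by 3.44 on the log2 scale, from 9.43 to 15.4 CPM in GFP-i to 0.485 to 1.74 CPM in RasV12. The part of these cells in the synthetase values was not tested.

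Most synthetase members did not pass the test between the genotypes, which does not show that their levels were equal. Of the 22 members 1 rose in RasV12, ThrRS, none fell, and 21 did not pass the test (edgeR quasi-likelihood test, adjusted p under 0.05). That is 4.55% of members, where 14.8% of all 9134 tested genes changed and 9.15% rose. The number of members with an unadjusted p under 0.05 was 4, of which 2 were lower in RasV12, or 18.2% of members against 28.3% of genes tested. DESeq2 and limma-voom each called 1 member, and neither called a fall. The median log2 fold change was -0.09 over the members and 0.02 over all genes tested, with 9 members positive and 13 negative. Fewer expressing cells and less RNA per cell cannot be told apart in these bulk libraries, and CPM gives a gene's share of the library, not its amount per cell.

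**Figure D1:**
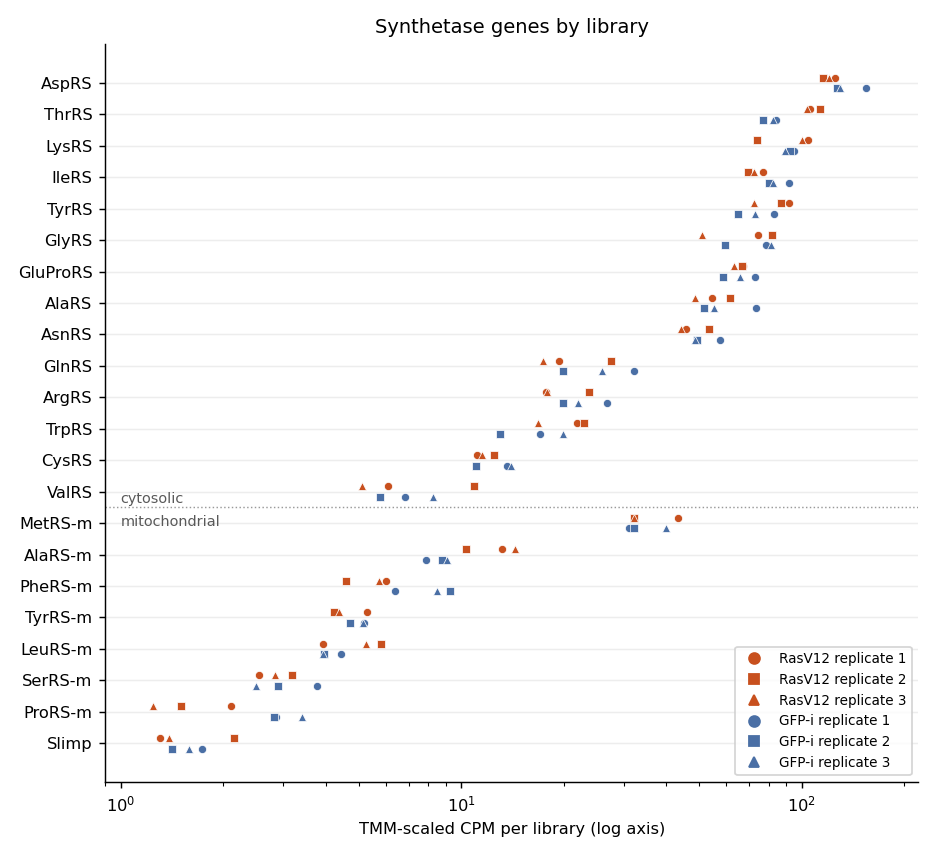
TMM-scaled CPM of the 22 synthetase genes in each library on a log axis, with RasV12 in orange, GFP-i in blue and the marker shape giving the replicate. The RasV12 and GFP-i points overlap for 16 genes and stand apart for 6, such as ThrRS (RasV12 higher) and ProRS-m (RasV12 lower).

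ThrRS, a threonyl enzyme of class II counted as cytosolic (2L, 12103751 to 12107170, dm6), was measured at 106, 113 and 103 CPM in RasV12 replicates 1, 2 and 3. In GFP-i replicates 1, 2 and 3 it stood at 84.0, 77.0 and 82.1 CPM. Every RasV12 library was above every GFP-i library. The log2 fold change was 0.41 ± 0.12 (SE, n = 3 per group; edgeR adjusted p = 0.047), a ratio of 1.32 with a 95% interval of 1.10 to 1.59. The call rested on the full set of libraries. Leaving out RasV12 replicate 1, 2 or 3 ended it (edgeR adjusted p = 0.104, 0.060 and 0.076), and so did leaving out GFP-i replicate 1, 2 or 3 (edgeR adjusted p = 0.142, 0.217 and 0.215). With the replicate number as a block it was also lost (edgeR adjusted p = 0.166), and under plain library-size scaling the log2 fold change was 0.25 (edgeR adjusted p = 0.192). The annotation gives ThrRS 4 transcripts with 2 ends, 276 bases apart, and no other annotated gene overlaps it.

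The log2 fold changes of the mitochondrial members ran from -0.90 to 0.56, and those of the cytosolic members from -0.28 to 0.41. AlaRS-m, which charges mitochondrial alanine tRNA (3L, 5146098 to 5149852), stood at 13.1, 10.3 and 14.4 CPM in RasV12 and at 7.90, 8.78 and 9.07 CPM in GFP-i. All 3 RasV12 libraries were above all 3 GFP-i libraries. Its log2 fold change, 0.56 ± 0.20 (SE, 3 libraries a group), did not pass (edgeR adjusted p = 0.090), but it passed without RasV12 replicate 2 (0.68, edgeR adjusted p = 0.032).

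ProRS-m, the mitochondrial prolyl enzyme (3L, 2650161 to 2651850), had 2.11, 1.499 and 1.25 CPM in RasV12 and 2.86, 2.83 and 3.40 CPM in GFP-i. These are 29, 16 and 18 counts against 38, 48 and 45, and the groups did not overlap. The log2 fold change was -0.90 ± 0.33 (SE, n = 3 per group; edgeR adjusted p = 0.104), and its 95% interval reached from -1.64 to -0.16. Under plain library-size scaling it passed (-1.06, edgeR adjusted p = 0.048). ProRS-m shares 45 bases with CG1246 on the other strand, which had 179 counts over all libraries against 194 for ProRS-m. Whether reads were counted by strand was not stated. PheRS-m, the mitochondrial phenylalanyl enzyme, which works as a single chain, was measured at 6.03, 4.59 and 5.75 CPM in RasV12 and 6.39, 9.25 and 8.46 CPM in GFP-i. Its RasV12 libraries were all lower, and the log2 fold change of -0.56 had a standard error of 0.23 (edgeR adjusted p = 0.147).

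The other mitochondrial members did not separate the genotypes. MetRS-m stood at 43.3, 32.2 and 32.1 CPM in RasV12 and at 31.1, 32.1 and 39.8 CPM in GFP-i, with 1 high library in each group. LeuRS-m, TyrRS-m and SerRS-m had log2 fold changes of 0.28, -0.11 and -0.10. Slimp had 1.31, 2.16 and 1.39 CPM in RasV12 and 1.73, 1.42 and 1.59 CPM in GFP-i, so the GFP-i values lay inside the RasV12 range. Of the 8 mitochondrial members none passed with edgeR, DESeq2 or limma-voom, and 3 had an unadjusted p under 0.05, 1 higher and 2 lower. That is 37.5%, against 24.8% of tested genes in their range of mean CPM and 28.3% of all genes tested. The groups did not overlap for 37.5% of them, against 30.2% of genes in that range. Reads of SerRS-m, TyrRS-m and Slimp are uncertain, because each overlaps a gene with more counts on the other strand (Nagk, CG3594 and Kal1) and whether reads were counted by strand was not stated.

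Among the cytosolic members besides ThrRS, every log2 fold change lay between -0.28 and 0.31. AspRS, the aspartyl enzyme (2R, 12877004 to 12883168), had 126, 115 and 119.9 CPM in RasV12 and 154, 127 and 129 CPM in GFP-i. All RasV12 libraries were lower, by a margin of about 1 CPM between the nearest libraries, and AspRS shares 3137 bases with Nmda1, on the other strand and with fewer counts. The difference did not pass (-0.19 ± 0.13, SE, n = 3 per group; edgeR adjusted p = 0.390). IleRS, the isoleucyl enzyme (3L, 22288665 to 22292810), had 76.7, 69.3 and 72.6 CPM in RasV12 and 91.6, 80.3 and 82.6 CPM in GFP-i. Its groups did not overlap either, and its log2 fold change of -0.22 ± 0.12 did not pass (edgeR adjusted p = 0.290). In all 6 of 22 members had groups that did not overlap, 2 higher and 4 lower in RasV12, or 27.3% against 33.6% of all genes tested.

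The bifunctional GluProRS, which charges both glutamate and proline tRNAs, stood at 67.4, 66.9 and 63.1 CPM in RasV12 and at 72.9, 58.9 and 65.9 CPM in GFP-i. The RasV12 values lay inside the GFP-i range, and the ratio was 0.998 with a 95% interval of 0.815 to 1.22. LysRS, the lysyl enzyme, had 104, 73.8 and 100.3 CPM in RasV12 against 94.6, 92.0 and 89.1 CPM in GFP-i, where 1 RasV12 library was the lowest of all 6. Of the multi-synthetase complex of mammals, a grouping made with these values known, the rule took GluProRS, LysRS, AspRS, IleRS, ArgRS and GlnRS. None of these 6 passed with edgeR, DESeq2 or limma-voom, none had an unadjusted p under 0.05, and their median log2 fold change was -0.20. The cytosolic MetRS, outside the rule, is not in that median and stood at 0.31. The cytosolic leucine gene is not analysed here. ArgRS and GlnRS had log2 fold changes of -0.21 and -0.28. GlnRS shares 26 bases with CG11858 on the other strand, a gene with more counts.

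The remaining cytosolic members were AlaRS, AsnRS, CysRS, GlyRS, TyrRS, TrpRS and ValRS. The alanyl, asparaginyl, cysteinyl and glycyl genes stood at log2 fold changes of -0.13, -0.12, -0.14 and -0.08, and the tyrosyl, tryptophanyl and valyl ones at 0.18, 0.31 and 0.08. None of them passed (edgeR adjusted p = 0.370 to 0.902), and the groups of each overlapped. By structural class 0 of 10 class I members and 1 of 10 class II members passed with edgeR. DESeq2 and limma-voom gave the same counts, and 0 class I and 4 class II members (40%) had an unadjusted p under 0.05, against 28.3% of all genes tested. Of these 4 class II members 3 are mitochondrial, AlaRS-m, ProRS-m and PheRS-m, and among the 6 cytosolic class II members there was 1, so the count by class is mixed with compartment. GluProRS holds an enzyme of each class and Slimp charges no tRNA, so neither was counted there.

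**Figure D2:**
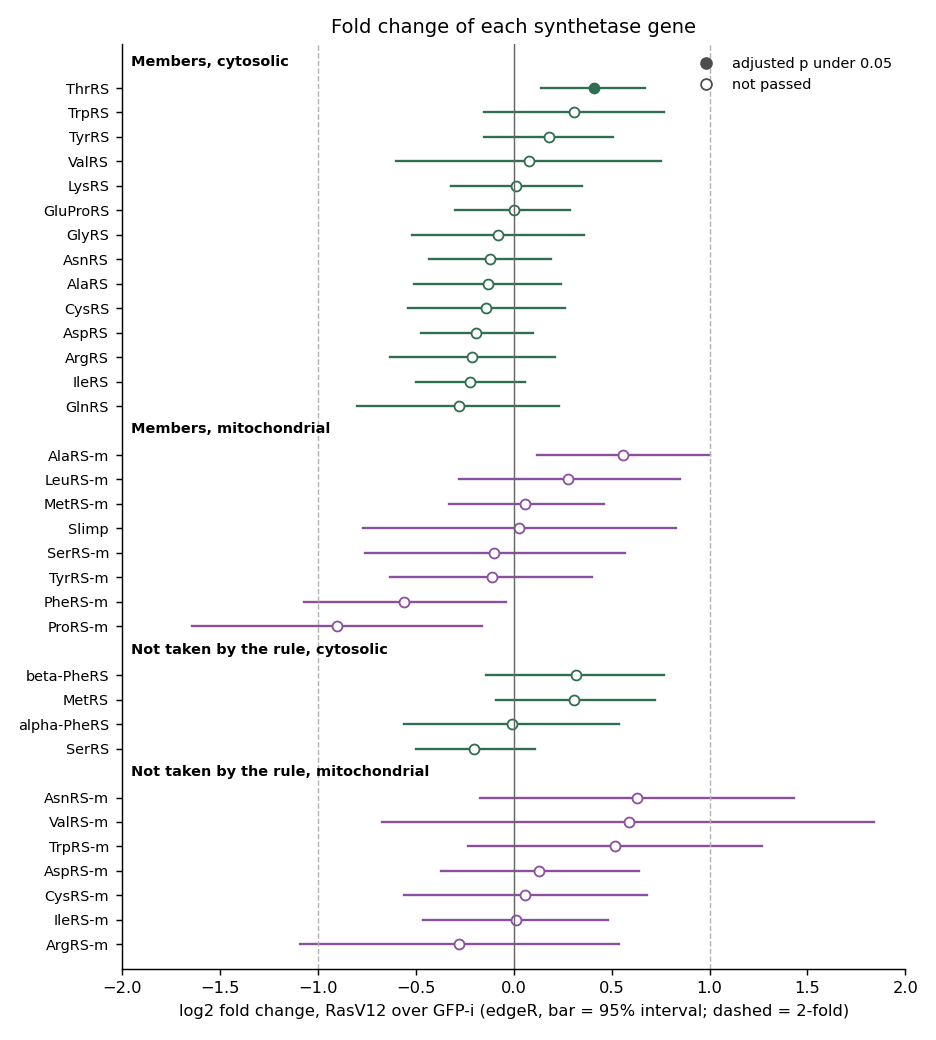
Log2 fold change of RasV12 over GFP-i for the 22 members and for 11 tested synthetase genes outside the rule, with 95% intervals from edgeR (bars) and dashed lines at a 2-fold change. ThrRS at 0.41 is the filled point past the threshold, and the intervals of ProRS-m and PheRS-m are those among the members that cross a dashed line.

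The intervals give the size of change that the libraries allow. For 20 of 22 members the 95% interval of the fold change lay within 2-fold in either direction, 90.9% of members against 58.2% of all genes tested. The exceptions were ProRS-m and PheRS-m. All 14 cytosolic members were within 2-fold, against 75.6% of tested genes in the same range of mean CPM (7.16 to 128). Within 1.5-fold were 9 of the 14 (64.3%), against 33.1% of genes in that range. The comparison matches only the lowest and highest level, and the width of an interval also depends on its standard error. The median standard error was 0.16 for the cytosolic members and 0.19 for genes in that range. The part of this in the shares was not tested. In that range of mean CPM 16.8% of genes changed, against 1 of 14 cytosolic members (7.14%). In the range of the mitochondrial members 12.5% of genes changed, against none of 8, and 6 of these 8 intervals lay within 2-fold against 57.2% of genes. Within 1.5-fold lay 1 of the 8 mitochondrial intervals (12.5%), against 16.5% of genes in their range.

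The summed level of the members was close between the genotypes. The 14 cytosolic genes added up to 822, 819 and 744 CPM in RasV12 and to 886, 729 and 797 CPM in GFP-i. The RasV12 sums lay within the range of the GFP-i sums, and the ratio of the means was 0.988. The 8 mitochondrial genes added up to 77.6, 64.0 and 67.4 CPM in RasV12 and 63.3, 65.9 and 73.9 CPM in GFP-i, a ratio of 1.03. MetRS-m alone made up 32.1 to 43.3 CPM of the RasV12 sums.

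Libraries of the same genotype also differed from each other, in an order shared by most cytosolic members. RasV12 replicate 2 was above RasV12 replicate 3 for 11 of 14 cytosolic members, and GFP-i replicate 1 was above GFP-i replicate 2 for all 14. Both orders held together for 11 of 14 cytosolic members (78.6%), for 4 of 8 mitochondrial members and for 35.9% of all genes tested. This comparison was chosen after the values were seen and was not tested. GlyRS, the glycyl enzyme, shows it: 74.5, 82.0 and 51.0 CPM in RasV12 replicates 1, 2 and 3, and 78.4, 59.3 and 81.2 CPM in GFP-i. For GlnRS the libraries read 19.3, 27.5 and 17.3 CPM in RasV12 and 32.1, 19.9 and 25.9 CPM in GFP-i. Both genes varied more within each genotype than their group means differed.

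The same 2 pairs of libraries deviated together across all tested genes. The correlation across genes of their deviations from the group mean was 0.432 for RasV12 replicate 2 with GFP-i replicate 1 and 0.562 for RasV12 replicate 3 with GFP-i replicate 2, where genes are not independent replicates. The crossed pairings gave -0.508 (RasV12 replicate 3 with GFP-i replicate 1) and -0.424 (RasV12 replicate 2 with GFP-i replicate 2). Deviations from a shared group mean constrain each other, so the 2 positive values are not separate agreements. Neither depth nor the shares of ribosomal RNA rows (10.1 to 17.3% of counts) and mitochondrial rows (2.16 to 5.31%) was tested as a part of this. Leaving out the second of these pairs put the log2 fold change of ThrRS at 0.36 (edgeR adjusted p = 0.233), and leaving out the first put it at 0.40 (edgeR adjusted p = 0.076). No member passed in either fit.

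**Figure D3:**
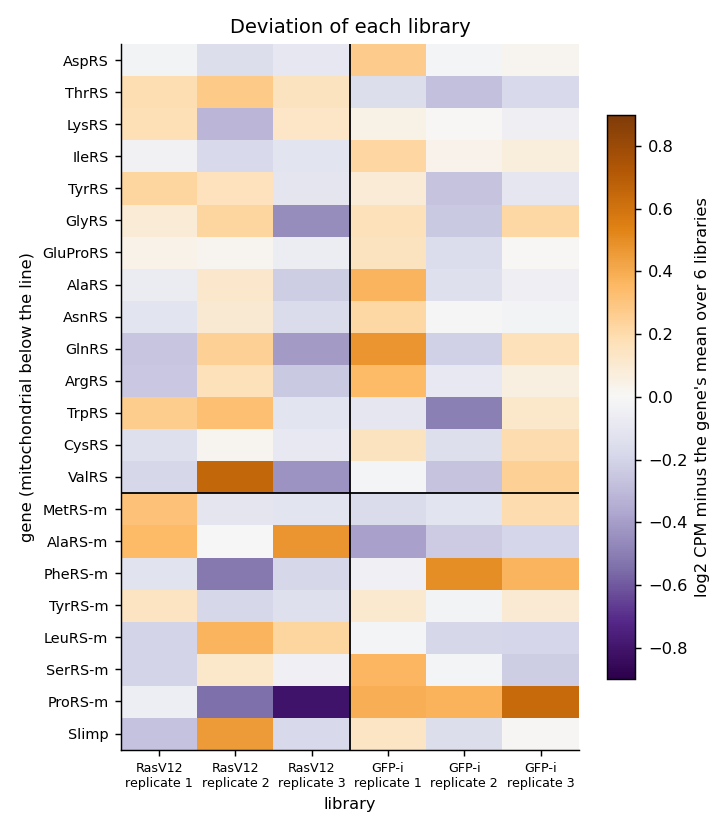
Deviation of each library from the gene's mean over the 6 libraries, in log2 CPM, for the 22 members (columns are libraries, rows are genes, orange above and purple below the mean). In the cytosolic rows RasV12 replicate 3 and GFP-i replicate 2 are mostly purple, and GFP-i replicate 1 is mostly orange.

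Synthetase genes outside the rule were examined beside the members. Of 12 such genes 11 were tested, and none passed with edgeR, DESeq2 or limma-voom or had an unadjusted p under 0.05. The untested gene was GluRS-m, at 0.375 to 1.25 CPM in all libraries. The cytosolic methionyl gene MetRS stood at 27.5, 35.1 and 25.3 CPM in RasV12 and 24.2, 20.1 and 26.4 CPM in GFP-i, a log2 fold change of 0.31 (edgeR adjusted p = 0.306). SerRS, the cytosolic seryl gene, stood at -0.20. The 2 subunits of the cytosolic phenylalanyl enzyme differed in sign, at -0.01 for alpha-PheRS and 0.32 for beta-PheRS, and neither passed. For both subunits RasV12 replicate 2 was the highest of the 6 libraries, at 44.7 and 42.6 CPM. The mitochondrial genes AsnRS-m, ValRS-m and TrpRS-m had log2 fold changes of 0.63, 0.59 and 0.52 with standard errors of 0.36, 0.56 and 0.34, and AspRS-m, CysRS-m, IleRS-m and ArgRS-m lay between -0.28 and 0.13. AsnRS-m and ArgRS-m overlap genes with more counts on the other strand (NiPp1 and mRpS9). Genes for histidine and for cytosolic leucine are not analysed here.

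The cytosolic and mitochondrial genes for the same amino acid are set side by side here, and their differences were not tested. For alanine the log2 fold changes were -0.13 in the cytosolic and 0.56 in the mitochondrial gene. For proline the cytosolic GluProRS was at a ratio of 0.998 while ProRS-m was at 0.536. For tyrosine they were 0.18 and -0.11, for methionine 0.31 and 0.06, and for serine -0.20 and -0.10. For phenylalanine the cytosolic subunits stood at -0.01 and 0.32 and the mitochondrial gene at -0.56. For arginine the cytosolic and mitochondrial genes stood at -0.21 and -0.28, for tryptophan at 0.31 and 0.52, and for isoleucine at -0.22 and 0.01. For aspartate they stood at -0.19 and 0.13, for cysteine at -0.14 and 0.06, for asparagine at -0.12 and 0.63, and for valine at 0.08 and 0.59.

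The authors' deposited table calls 0 of the 22 members, where 7.07% of the genes with a call entry are called higher or lower. Every called gene there has a log2 fold change of at least 1.00 in size, and 825 genes with an adjusted p under 0.05 are left uncalled. The authors' deposited table gives ThrRS a log2 fold change of 0.37 with an adjusted p of 0.057. In the authors' deposited table no member has an adjusted p under 0.05.

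Genes that work beside the synthetases were examined as 6 further lists, to be read against the 14.8% of all tested genes that changed and the 9.15% that rose. Of the scaffold proteins of the complex and the amidotransferase subunits that correct mischarged mitochondrial tRNA, 5 genes were tested and none passed with edgeR, DESeq2 or limma-voom or had an unadjusted p under 0.05. AIMP1, AIMP2 and GatB had log2 fold changes of -0.17, 0.17 and 0.41. Among 11 elongation and termination factors none passed with the 3 tools and 2 had an unadjusted p under 0.05. The release factor genes eRF3 and eRF1 and the exchange factor gene eEF1delta stood at -0.42, -0.32 and -0.26.

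Of 25 initiation factor genes 2 rose and none fell, or 8% changed against 14.8% of all genes tested, with a list median of -0.02. Thor, the 4E-BP repressor of cap-dependent translation, had 24.6, 25.1 and 24.3 CPM in RasV12 and 6.62, 3.89 and 4.84 CPM in GFP-i. Its log2 fold change was 2.28 ± 0.22 (SE, n = 3 per group; edgeR adjusted p = 9.6e-05). eIF5B, the GTPase that joins the ribosomal subunits, had 435, 371 and 410.2 CPM in RasV12 against 138, 172 and 149 CPM in GFP-i, and rose by 1.40 ± 0.13 (SE; edgeR adjusted p = 9.9e-05). Both genes kept their calls in all 17 alternative fits. The RNA-binding factor gene eIF4H1 stood at -0.35 and did not pass (edgeR adjusted p = 0.069), though it passed with DESeq2 (adjusted p = 0.028), and in edgeR with plain library-size scaling or with ribosomal RNA and mitochondrial rows left out (adjusted p = 0.020 and 0.040).

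In tRNA synthesis and processing 1 of 24 tested genes rose, Elp2, a subunit of the Elongator complex that modifies the tRNA wobble base. It had 16.7, 16.7 and 15.5 CPM in RasV12 and 11.2, 8.43 and 10.95 CPM in GFP-i, and rose by 0.68 ± 0.18 on the log2 scale (SE; edgeR adjusted p = 0.032). The call was lost in 10 of 17 alternative fits, among them those without RasV12 replicate 1 or 3 (edgeR adjusted p = 0.100 and 0.061) and without GFP-i replicate 1, 2 or 3 (edgeR adjusted p = 0.071, 0.142 and 0.112). The list median was 0.05, and the share changed was 4.17% against 14.8% of all genes tested. The RNase P subunit gene Rpp30 (-0.45) and La (-0.22), whose product binds new tRNA ends, did not pass.

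In amino acid transport and sensing 2 of 18 tested genes rose and 1 fell, with a list median of 0.17. This is 16.7% of the list, and 33.3% had an unadjusted p under 0.05, close to the 14.8% and 28.3% of all genes tested. The transporter gene path had 218, 247 and 269 CPM in RasV12 and 89.9, 92.3 and 77.2 CPM in GFP-i. It rose by 1.50 ± 0.14 (log2, SE, n = 3 per group; edgeR adjusted p = 7.8e-05) and kept that call in all 17 alternative fits. REPTOR, a transcription factor that the TOR kinase restrains, rose by 0.54 ± 0.15 (SE; edgeR adjusted p = 0.043). That call was lost in 13 of 17 alternative fits, among them those without RasV12 replicate 1 or 3 (edgeR adjusted p = 0.076 and 0.130) and without GFP-i replicate 1, 2 or 3 (edgeR adjusted p = 0.193, 0.070 and 0.197). CD98hc, the heavy chain shared by several amino acid transporters, fell by 0.43 ± 0.12 on the log2 scale (SE; edgeR adjusted p = 0.031). This was lost in 8 of 17 fits, among them those without RasV12 replicate 1 or 3 (edgeR adjusted p = 0.096 and 0.076) and without GFP-i replicate 1, 2 or 3 (edgeR adjusted p = 0.071, 0.053 and 0.071). In serine, asparagine and one-carbon synthesis 1 of 11 genes fell (9.09%, against 14.8% of all genes changed), Cbs, which begins the conversion of homocysteine to cysteine. Its log2 fold change was -0.47 ± 0.14 (SE; edgeR adjusted p = 0.045). The fall was not called in 9 of 17 fits, among them those without RasV12 replicate 1, 2 or 3 (edgeR adjusted p = 0.115, 0.063 and 0.095) and without GFP-i replicate 1 or 3 (edgeR adjusted p = 0.090 and 0.126). The folate enzyme gene Nmdmc (0.43) and Cth (-0.43), which acts after Cbs, did not pass.

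**Figure D4:**
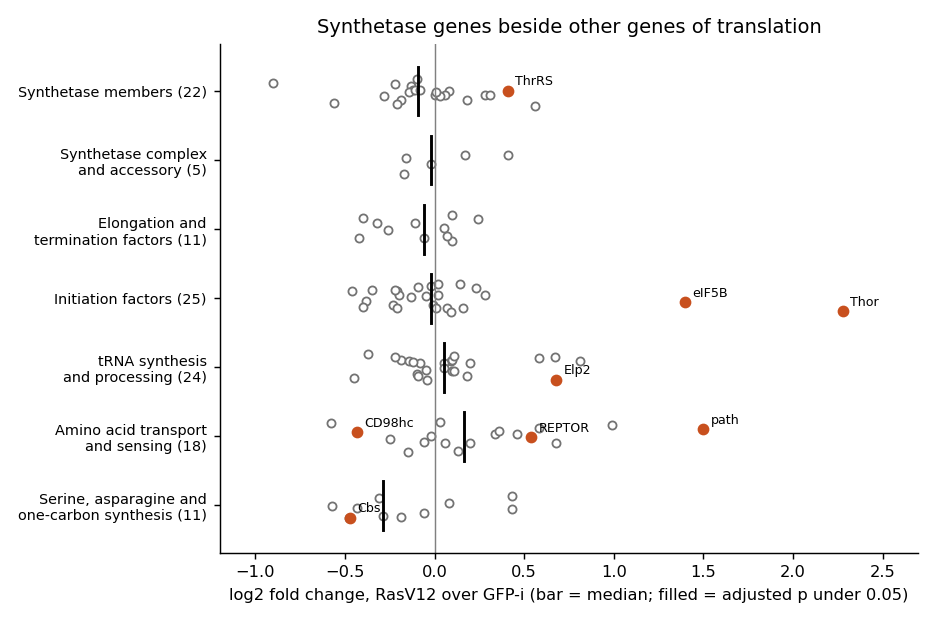
Log2 fold change of RasV12 over GFP-i for each tested gene of the synthetase set and of the 6 other lists, with the list median as a black bar and genes past an adjusted p of 0.05 filled and named. The synthetase median is -0.09, and Thor at 2.28, path at 1.50 and eIF5B at 1.40 lie farthest to the right.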

How the data were processed

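Raw counts per gene were read from the deposited table, 3 libraries per genotype, as whole numbers that the authors did not normalize, as found from the values. Trimmomatic 0.33, STAR 2.3.0e, bedtools 2.17, DESeq2 and build dm6 are listed, per the submitters' processing notes. How reads were assigned to genes, by strand or not, and with which annotation: not given in the sources used here. A deposited column, baseMean, is a signal, the authors' mean of counts over size factors, and log2 fold changes with their errors, a test statistic score, p-values and a call column of another kind come from the authors' own test, per the file headers. Current gene symbols came from the supplied symbol table for 21 members and from RefSeq for 1, and the coordinates of all 21 members shared with Ensembl release 115 were identical.

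All genes were tested together in R 4.3.3 with edgeR 4.0.16 (TMM scaling, filterByExpr, robust quasi-likelihood F test, two-sided, Benjamini-Hochberg over 9134 genes, threshold 0.05). Standard errors and 95% intervals were derived from the F statistic. On data simulated for this comparison (8993 genes), 58% of genes with a 2-fold change were called and 12% with a 1.5-fold change, and 9.09% of all calls were unchanged genes. The simulation changed 100 genes at each fold, a smaller share than the 14.8% called in the data. These genes were drawn above a minimum level that members such as ProRS-m and Slimp did not reach. The percentages therefore need not hold for the data or for those members. Alternatives used DESeq2 1.42.0, limma-voom (limma 3.58.1), other scalings and filters, a replicate block and leaving out libraries. Counting intervals and floors cover counting error only, since no molecular identifiers are stated.

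Per-library values are given for members past the threshold, for the 4 others with the lowest p and for the 2 highest and 2 lowest mean levels, and for members that illustrate a pattern, chosen after their values were seen. From each other list the 3 lowest p are named. Of 138 list entries 128 were matched. Members and lists were chosen with earlier results of these data known. Planned counts of promoter motifs and protein signatures were not made, since no sequence is used here.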

Additional observations from a re-analysis of the deposited data

How the results depend on the processing

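The single call among synthetase genes depended on the processing. ThrRS kept its direction in all 17 alternative fits (log2 fold change 0.25 to 0.43) and its call in 3, namely DESeq2, limma-voom and a filter of 10 CPM in 3 libraries (adjusted p = 0.030 to 0.233 over all). The number of members higher was 0 with upper quartile scaling, plain library-size scaling, DESeq2 size factors, no filter, without ribosomal RNA and mitochondrial rows, and without either pair of libraries, and 0 to 1 when 1 library was left out. The number lower was 1 with plain library-size scaling, which moved the median of all genes to -0.14 from 0.02, and 0 when any 1 library was left out. Same-numbered libraries did not deviate together (correlations across genes of -0.034, -0.424 and -0.112), and the replicate block gave 0 members higher. The genes of the 6 other lists that rose numbered 3 with plain library-size scaling, no filter, the replicate block or without RasV12 replicate 3 and GFP-i replicate 2, and 3 to 6 when 1 library was left out, against 5. Those that fell numbered 7 with plain library-size scaling, 4 with DESeq2 or without ribosomal RNA and mitochondrial rows, 1 with limma-voom, 0 with the replicate block, and 0 or 1 without either pair of libraries, and 0 to 5 when 1 library was left out, against 2. Marker genes past the threshold numbered 7 with the replicate block and 8 to 15 when 1 library was left out, against 13. Signs turned for 7 members, none of them called in any fit, with no turned value above 0.31 in size. The values that follow also hold AspRS-m, CysRS-m, IleRS-m, ArgRS-m and alpha-PheRS, which lie outside the rule and are not among the 7. With plain library-size scaling ValRS stood at -0.08, MetRS-m at -0.10, Slimp at -0.13, LysRS at -0.15, AspRS-m at -0.02, CysRS-m at -0.10 and IleRS-m at -0.15. With limma-voom ValRS was at -0.00, GluProRS at 0.00 and Slimp at -0.01. LysRS turned to -0.01 with upper quartile scaling, -0.02 with DESeq2 and with its size factors, -0.05 with no filter, -0.00 with the replicate block (GluProRS 0.00) and -0.04 without ribosomal RNA and mitochondrial rows. Slimp was at -0.03 with no filter and -0.02 without those rows, and IleRS-m at -0.01 with upper quartile scaling, DESeq2 and its size factors, and -0.04 with no filter and without those rows. Without RasV12 replicate 3 and GFP-i replicate 2 LysRS was at -0.09, AspRS-m at -0.03, CysRS-m at -0.06, IleRS-m at -0.15 and alpha-PheRS at 0.03. Without RasV12 replicate 2 and GFP-i replicate 1 ValRS was at -0.31, GluProRS at 0.06, Slimp at -0.15 and ArgRS-m at 0.13. With 1 library left out, the range was -0.31 to 0.28 for ValRS, -0.25 to 0.10 for GlyRS, -0.09 to 0.14 for MetRS-m, -0.28 to 0.02 for SerRS-m, -0.12 to 0.03 for GluProRS, -0.22 to 0.16 for Slimp, -0.08 to 0.15 for LysRS, -0.05 to 0.27 for AspRS-m, -0.12 to 0.18 for CysRS-m, -0.13 to 0.09 for IleRS-m and -0.29 to 0.20 for alpha-PheRS. The causes were not tested.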

Other observations

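The mitochondrial tRNA rows, substrates of the mitochondrial synthetases, were looked at after the data were seen. Of 22 such rows 21 were tested, and 2 rose in RasV12 and none fell with edgeR. That is 9.52% of the rows, near the 9.15% of all tested genes that rose, and 14.8% changed in either direction. DESeq2 called 3 of the rows and limma-voom 2. Whether 3' mRNA tags measure mature tRNA was not tested. The glutamine tRNA row mt:tRNA:Gln-TTG had 12.3, 8.06 and 16.5 CPM in RasV12 replicates 1, 2 and 3 and 3.16, 3.60 and 3.93 CPM in GFP-i, and rose by 1.79 ± 0.28 on the log2 scale (SE; edgeR adjusted p = 0.002). The asparagine tRNA row mt:tRNA:Asn-GTT had 17.2, 13.7 and 13.7 CPM against 8.28, 5.84 and 8.69 CPM, and rose by 0.97 ± 0.21 (log2, SE; edgeR adjusted p = 0.013). RasV12 replicate 2 stood apart from the other RasV12 libraries for mt:tRNA:Cys-GCA, at 72.6 CPM against 283 and 234 CPM, while GFP-i stood at 71.8 to 110.0 CPM, and this row did not pass (edgeR adjusted p = 0.137). The same library was the lowest of all 6 for mt:tRNA:Lys-CTT (17.4 CPM), mt:tRNA:Gly-TCC (11.7 CPM) and mt:tRNA:Arg-TCG (65.7 CPM). It was the highest for mt:tRNA:Leu-TAG, at 78.9 CPM against 9.73 and 16.3 CPM in the other RasV12 libraries and 13.4 to 14.3 CPM in GFP-i. These rows lie beside or across other mitochondrial genes, and whether their counts hold reads of those genes was not tested.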
